A study of Mus musculus with 2 samples.

Results

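Neighboring cardiomyocytes are joined end to end at the intercalated disc, and the 10 genes described here encode its principal gap junction and adhesion proteins. They were taken by symbol from the genes listed with the deposited counts and comprise Gja1, Gja5 and Gjc1 of the gap junction, Cdh2 and Ctnna3 of the adherens junction, and Dsp, Jup, Pkp2, Dsg2 and Dsc2 of the desmosome, 10 of 19465 genes in all. Spatial gene expression was measured with Visium CytAssist on 5 μm sections of formalin-fixed, paraffin-embedded mouse hearts, 1 section from a control α-MHC-MerCreMer+/− mouse and 1 section from an α-MHC-MerCreMer+/− hTOP2BLSL/− mouse, called the TOP2B transgenic section below. Both mice carried the tamoxifen-inducible Cre recombinase under the cardiomyocyte α-MHC promoter, and both were given 1 intraperitoneal dose of tamoxifen (80 mg/kg). The transgenic mouse also carried a human TOP2B cDNA in the Rosa26 locus behind a floxed STOP cassette and a CAG promoter, so that Cre turns on human TOP2B in cardiomyocytes. The study's methods give an age of 6 weeks for the mice of this acute protocol, whereas the time from tamoxifen to collection of these 2 hearts was not given in the sources used here. There was 1 section per genotype, so that no test between the genotypes was possible and every interval below covers counting error only.

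A gap junction channel is built from connexins, and Gja1 (connexin 43), Gja5 (connexin 40) and Gjc1 (connexin 45) are those known from heart muscle. Connexin 43 is the connexin of working ventricular muscle, connexin 40 is known from atrial muscle, the ventricular conduction system and arterial endothelium, and connexin 45 from the conduction system. Adherens junctions anchor actin filaments through N-cadherin (Cdh2) and the α-catenins, of which αT-catenin (Ctnna3) is the cardiac form. Desmosomes anchor desmin filaments through the cadherins desmoglein 2 (Dsg2) and desmocollin 2 (Dsc2), the armadillo proteins plakoglobin (Jup) and plakophilin 2 (Pkp2), and desmoplakin (Dsp), and inherited variants in these genes are known to cause arrhythmogenic cardiomyopathy.

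The deposited counts held 14376300 unique molecular identifiers (UMIs, single probe molecules counted) over 1256 control spots and 12953389 over 924 transgenic spots. The sections differed in outline, with 230 of the control and 311 of the transgenic spots at the edge of the tissue, and whether both hearts were cut at the same level was not given in the sources used here. A spot is a small circle of tissue that can hold several cells of different types. The median depth was 11335.5 UMIs per control spot and 14531 per transgenic spot. All genes of the assay are read through probes, so the count of one gene was not set against that of another, except as a composition compared between the sections. Levels are given as CPM, that is UMIs of a gene per 1000000 UMIs of the section. Each section was also split at the center of its tissue into 4 quadrants, whose range shows the spread inside a section but does not replace replicate mice. Of 15 genes of other organs, whose probes should find little in the heart, the median count was 10 UMIs in the control against 9 in the transgenic section, with a maximum of 18 and 15. All 10 disc genes lay above these counts in both sections. Mouse Top2b stood at 106 CPM in the control against 102 CPM in the transgenic section, and the human transgene was not measured as a gene of its own. The Cardiomyocyte markers were present in both sections, with Tnnt2 at 13091 and 14721 CPM, and summed over 11 markers they stood at 89606 CPM in the control against 50287 CPM in the transgenic section. Much of the fall in that sum came from Myh6 (18470 to 5734 CPM), Myl2 (21080 to 8646 CPM) and Tnni3 (10089 to 2662 CPM). Of the 11 markers 2 were higher.

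In the transgenic section 5 disc genes were lower and 5 were higher than in the control. Gja1, Gjc1, Ctnna3, Pkp2 and Dsc2 were lower, and Gja5, Cdh2, Dsp, Jup and Dsg2 were higher. The desmosome was thus divided, with its plaque genes Dsp and Jup close to 2-fold higher and Pkp2 lower, and with its cadherin Dsg2 higher and Dsc2 lower. A gene was counted if its UMIs came to at least 20 in the 2 sections together, as they did for all 10 disc genes and for 15236 genes in all. None of the 10 was at least 2-fold lower, against 5.61% of all genes counted, and none was at least 2-fold higher, against 13.7%. All transgenic quadrants lay below all control quadrants for 3 disc genes, against 13.1% of all genes, and above them for 5, against 30.4%. The counting interval of the log2 ratio lay below 0 for 5 disc genes, against 17.0% of all genes, and above 0 for the other 5, against 39.4%. The median log2 ratio was 0.08 over the disc genes and 0.20 over all genes counted, and 36.8% of all genes were lower. With edgeR TMM factors in place of total UMIs 47.6% of all genes were lower and their median was 0.05, while the same count of 5 disc genes was lower. In bulk sums of this kind fewer cells of a type and less RNA per cell cannot be told apart.

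**Figure D1:**
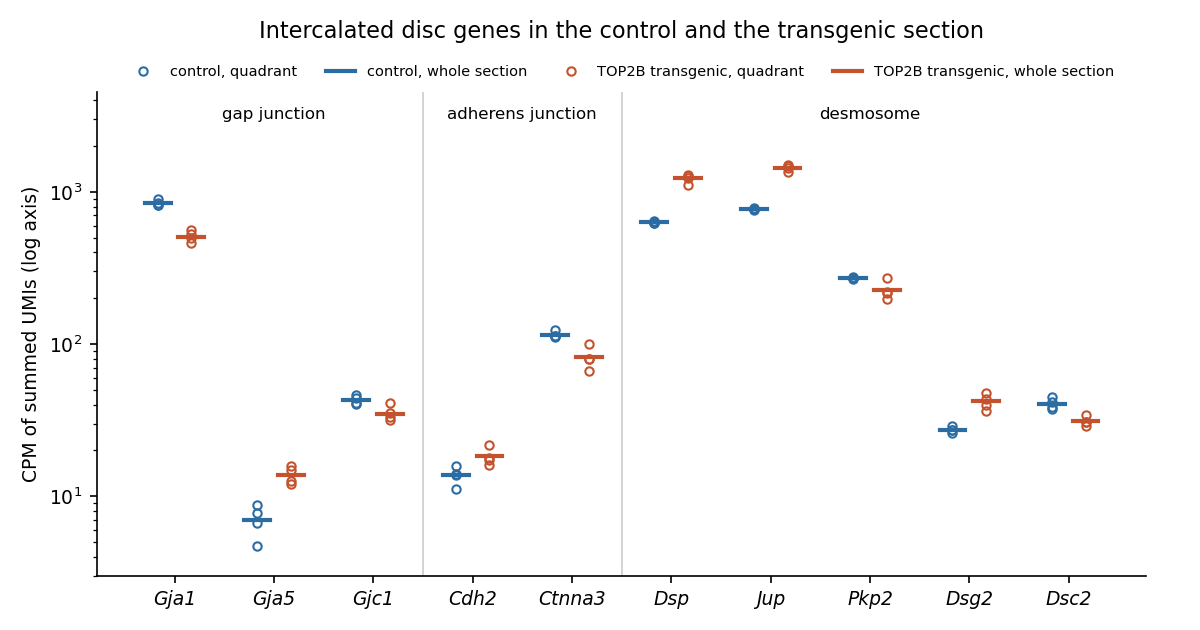
CPM of the 10 disc genes on a log axis, in the control (blue) and the TOP2B transgenic section (red), with bars for the whole section and open circles for its 4 quadrants. Quadrant circles of the 2 sections overlap for Gjc1 and Pkp2 and lie apart for the other 8 genes.

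Dsp and Jup were higher in the transgenic section by nearly the same factor, and Gja1 and Gja5 differed in opposite directions, so the bases before the start of these 4 genes are shown to set the genes side by side. Promoters were found for 5 of the 10 genes in the RefSeq table, which is of build GRCm38.p6, whereas the submitters' processing notes name GRCm39. Each line gives the 250 bases that end at the annotated start, on the strand of the gene and 5′ to 3′. The Dsp window is chr13:38151044-38151293 (plus strand), the Jup window chr11:100397791-100398040 (minus strand), the Gja1 window chr10:56377050-56377299 (plus strand) and the Gja5 window chr3:97032152-97032401 (plus strand). Capitals mark the matches of 4 motifs on either strand, the T-box motif GGTGTG, the GATA motif AGATAA, the GC box GGGCGG and the AP-1 motif TGANTCA, none of which overlapped another here.
Dsp: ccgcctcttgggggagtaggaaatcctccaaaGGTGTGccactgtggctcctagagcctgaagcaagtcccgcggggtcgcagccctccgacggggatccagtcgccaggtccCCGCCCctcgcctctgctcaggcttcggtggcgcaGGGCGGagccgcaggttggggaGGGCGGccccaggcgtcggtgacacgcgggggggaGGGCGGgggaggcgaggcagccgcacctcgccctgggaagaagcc
Jup: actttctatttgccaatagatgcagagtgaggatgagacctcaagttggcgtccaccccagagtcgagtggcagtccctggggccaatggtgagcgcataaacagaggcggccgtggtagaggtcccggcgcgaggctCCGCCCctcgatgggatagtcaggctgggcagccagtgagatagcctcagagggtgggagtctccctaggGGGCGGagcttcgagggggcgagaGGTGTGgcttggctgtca
Gja1: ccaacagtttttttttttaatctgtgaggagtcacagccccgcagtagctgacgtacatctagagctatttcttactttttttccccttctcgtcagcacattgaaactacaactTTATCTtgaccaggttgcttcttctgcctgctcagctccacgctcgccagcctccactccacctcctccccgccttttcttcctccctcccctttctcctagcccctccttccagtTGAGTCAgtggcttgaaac
Gja5: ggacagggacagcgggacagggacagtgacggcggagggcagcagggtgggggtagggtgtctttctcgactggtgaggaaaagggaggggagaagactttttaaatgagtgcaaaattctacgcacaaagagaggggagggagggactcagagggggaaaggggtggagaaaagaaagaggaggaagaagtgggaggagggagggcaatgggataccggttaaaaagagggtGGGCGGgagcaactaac
The Dsp window held 4 GC boxes and the Jup window 2, and each held 1 T-box motif. The Gja1 window held neither, but 1 GATA and 1 AP-1 match, and the Gja5 window held 1 GC box. Among 32851 promoters of the same length in the table, 32.7% held a GC box, 16.3% a T-box motif, 9.99% a GATA motif and 6.75% an AP-1 motif. These matches describe letters only and were not tested against any measurement of binding.

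Gja1, which encodes the main connexin of working ventricular muscle, was counted 12113 times in the control section, or 843 CPM, and 6561 times in the transgenic section, or 507 CPM. The quadrants ran from 814 to 895 CPM in the control and from 461 to 557 CPM in the transgenic section, with no overlap. The log2 ratio was −0.73, with a counting interval of −0.78 to −0.69, and −0.94 relative to the median of all genes. Of the 11 cardiomyocyte markers 9 were lower as well, against 36.8% of all genes, with a median log2 ratio of −0.60. Their sum ran from 88016 to 90273 CPM over the control quadrants and from 41595 to 58918 CPM over the transgenic quadrants. In the 50% of spots richest in these markers the Gja1 log2 ratio was −0.75. No marker of that list was at 0. Their part in the lower Gja1 level was not tested.

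Gja5, the connexin of atrium, conduction system and arteries, was sparse, with 100 UMIs in the control section against 179 in the transgenic section. These counts amount to 6.96 CPM (5.66–8.46) and 13.8 CPM (11.9–16.0). The control quadrants lay at 8.78, 7.72, 6.67 and 4.72 CPM and the transgenic quadrants at 11.96, 14.96, 12.63 and 15.81 CPM. Every transgenic quadrant was therefore above every control quadrant. The log2 ratio was 0.99 (0.63–1.36), just short of 2-fold. Gjc1 (connexin 45) went from 618 UMIs or 43.0 CPM to 452 UMIs or 34.9 CPM, a log2 ratio of −0.30 (−0.48 to −0.12). Its control quadrants (40.3–46.3 CPM) and transgenic quadrants (31.6–40.9 CPM) overlapped.

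Markers of the cells known for connexin 40 were unequal between the sections as well. In the arterial endothelial list 9 of 10 genes were higher, against 63.2% of all genes, with a median log2 ratio of 0.77. The sum of the list ran from 201 to 261 CPM over the control quadrants and from 438 to 544 CPM over the transgenic quadrants. Much of the rise in that sum came from Fbln5, which went from 26.9 to 171 CPM. Dll4 was lower, at a log2 ratio of −0.40. The arterial list includes Gja4 (connexin 37 of arterial endothelium), which had 281 UMIs in the control against 673 in the transgenic section, with a log2 ratio of 1.41. The general endothelial list summed to 2038 CPM in the control against 2142 CPM in the transgenic section. For the smooth muscle list the sums were 752 and 731 CPM, and the quadrant ranges of both lists overlapped. Of the 7 genes of the atrial list counted, 4 were higher, beside 63.2% of all genes. The list summed to 104 CPM in the control against 187 CPM in the transgenic section. Much of that sum came from Dkk3, which went from 57 UMIs (3.96 CPM) to 947 UMIs (73.1 CPM). The atrial myosin light chains were higher too, with 125 and 409 UMIs for Myl7 and 158 and 328 UMIs for Myl4, whereas Tbx5 and Stard10 were lower, at log2 ratios of −0.60 and −0.43. Sln and Bmp10, which are also known from atrial muscle, were near background in both sections, with 16 and 10 UMIs for Sln and 9 and 9 UMIs for Bmp10. In the conduction system list 5 of 8 genes were higher, near the share over all genes. Its sum went from 37.8 CPM (29.8–46.9 over quadrants) to 87.9 CPM (72.1–109). Cntn2, a marker of the ventricular conduction system, had 48 and 53 UMIs. Without the 10% of spots richest in the summed atrial list, which Dkk3 weighs on, the Gja5 log2 ratio was 0.96. The part of the arterial, atrial and conduction genes in the higher Gja5 level was not tested.

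**Figure D2:**
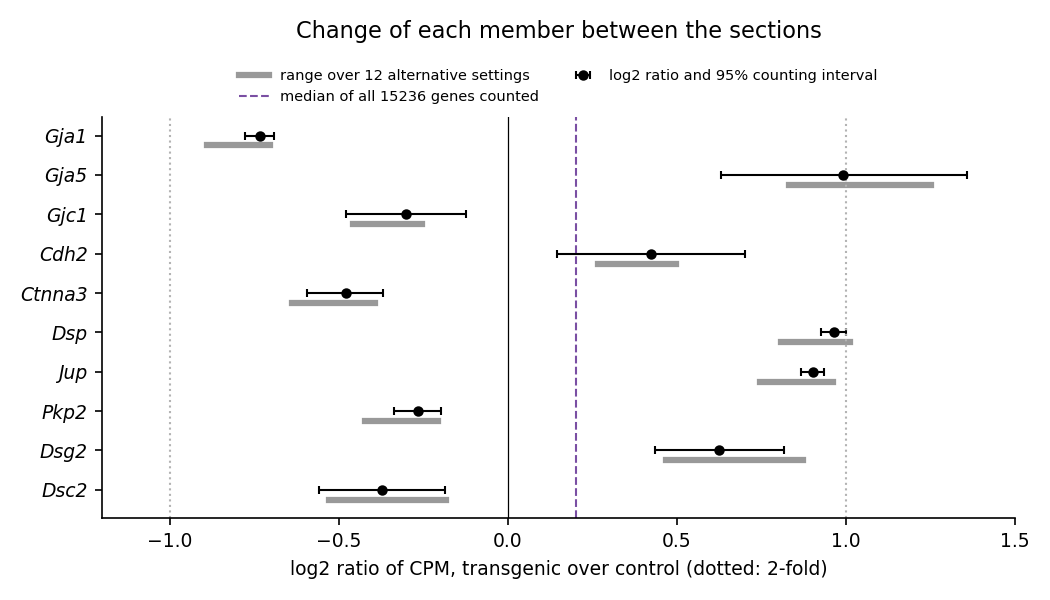
Log2 ratio of CPM, transgenic over control, of each disc gene with its 95% counting interval (black), above the range of the same ratio over 12 alternative settings (gray bar). No gray bar crosses 0, the dashed line at 0.20 is the median of all 15236 genes counted, and the dotted lines mark 2-fold.

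The connexin composition, which does not depend on how the 2 sections are scaled, was shifted away from Gja1. Of the UMIs of the 3 connexins, Gja1 took 94.4% in the control section against 91.2% (90.5–91.9%) in the transgenic section. Gja5 took 0.78% (0.63–0.95%) in the control against 2.49% (2.14–2.88%) in the transgenic section. Gjc1 took 4.82% (4.45–5.20%) and 6.28% (5.73–6.87%). For each of the 3 connexins the quadrant ranges did not overlap, and for Gja5 they were 0.50–0.99% in the control and 1.98–2.95% in the transgenic section. The ratio of Gja5 to Gja1 UMIs was higher in the transgenic section by 1.72 on the log2 scale (1.37–2.08), and that of Gjc1 to Gja1 by 0.43 (0.25–0.61). Gjc1 thus took a larger share of the connexin UMIs in the transgenic section although its own CPM was lower there.

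Other connexins and pannexins came from a list of 20 genes, of which 12 had enough UMIs to be counted, 3 lower and 9 higher. The lowest log2 ratio was −1.62 for Gjd2 (connexin 36), with 17 and 5 UMIs. The channel-forming pannexin Panx1 had 20 and 98 UMIs, and Panx2 had 27 and 74. Gja3 (connexin 46) had 107 UMIs in the control against 44 in the transgenic section, with a log2 ratio of −1.13. The counting interval lay above 0 for 5 of the 12 genes and below 0 for 2, which is near the shares of 39.4% and 17.0% over all genes. Low counts limit this list, since only 2 of its genes reached 200 UMIs.

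**Figure D3:**
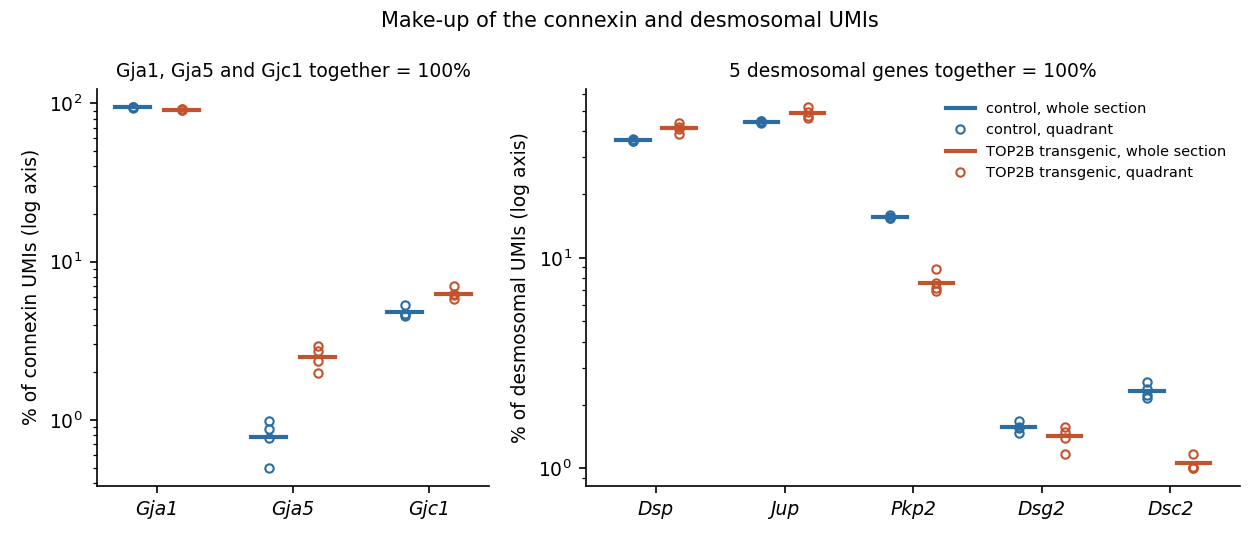
Share of each gene in the UMIs of the 3 connexins (left) and of the 5 desmosomal genes (right), in percent on a log axis, with bars for the whole section and circles for its quadrants. The Gja5 circles lie at 0.50–0.99% in the control (blue) and 1.98–2.95% in the transgenic section (red), and Pkp2 is at 15.6% and 7.62%.

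Of the adherens junction genes, N-cadherin was slightly higher and αT-catenin lower. Cdh2, the transmembrane cadherin of this junction, had 197 UMIs in the control, or 13.7 CPM, and 238 in the transgenic section, or 18.4 CPM. Its log2 ratio was 0.42 (0.14–0.70), whose interval held the median of all genes, and its quadrants did not overlap, with a control maximum of 15.8 and a transgenic minimum of 16.1 CPM. Ctnna3, which links the cadherin complex to actin and binds plakophilin 2, went from 1649 UMIs (115 CPM) to 1065 UMIs (82.2 CPM), a log2 ratio of −0.48 (−0.59 to −0.37). The transgenic quadrants of Ctnna3 ran from 66.3 to 99.4 CPM and lay below the control range of 111–123 CPM.

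Partners of this junction, from a list of 12 genes of which 11 were counted, were higher for 9 genes and lower for 2. Over all genes counted 63.2% were higher. αE-catenin (Ctnna1), the other α-catenin of the disc, was lower at −0.76 on the log2 scale, from 12133 to 6463 UMIs, and Pkp4 was lower at −0.41. Ctnnb1 (β-catenin) stood at 0.34, Ctnnd1 (p120-catenin) at 0.41, the actin-binding Vcl (vinculin) at 0.87 and Nrap at 0.64, and Arvcf, a p120-catenin relative, was at the top of the list with 1.42. Both α-catenins of the disc were therefore lower while β-catenin, p120-catenin and vinculin were higher. The list median was 0.41. With TMM factors 3 of the 11 were lower in place of 2. Among 4 cadherins of vessels and nerves, Cdh5 of endothelium was at 0.05, Cdh13 at 0.34, Cdh19 at 0.38 and Cdh11, a cadherin of fibroblasts, at 1.68.

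In the desmosome, desmoplakin and plakoglobin were higher by nearly the same factor. Dsp, which ties the plaque to desmin filaments, had 9039 UMIs (629 CPM) in the control against 15893 UMIs (1227 CPM) in the transgenic section. The control quadrants lay at 619, 639, 626 and 630 CPM and the transgenic quadrants at 1102, 1236, 1272 and 1285 CPM. The log2 ratio was 0.96 (0.93–1.00). Jup, the plaque protein shared by desmosomes and adherens junctions, had 11055 UMIs (769 CPM) in the control against 18619 UMIs (1437 CPM) in the transgenic section. Its control quadrants lay at 771, 759, 779 and 767 CPM and its transgenic quadrants at 1483, 1490, 1348 and 1441 CPM, a log2 ratio of 0.90 (0.87–0.94). For both genes the lowest transgenic quadrant was far above the highest control quadrant. Relative to the median of all genes the ratios were 0.76 for Dsp and 0.70 for Jup.

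Pkp2, which binds desmoplakin and plakoglobin in the plaque, went the other way, from 3903 UMIs (271 CPM) to 2924 UMIs (226 CPM). The log2 ratio of Pkp2 was −0.27 (−0.34 to −0.20). Its transgenic quadrants spread from 198 to 271 CPM and reached the control range of 268–277 CPM. The 2 desmosomal cadherins also went in opposite directions. Dsg2 had 392 UMIs (27.3 CPM) and 545 UMIs (42.1 CPM), a log2 ratio of 0.63 (0.44–0.82), whereas Dsc2 had 583 UMIs (40.6 CPM) and 406 UMIs (31.3 CPM), a log2 ratio of −0.37 (−0.56 to −0.19). The quadrants did not overlap for either cadherin, at 25.8–29.0 and 36.1–47.5 CPM for Dsg2 and at 37.2–44.7 and 29.1–34.3 CPM for Dsc2.

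The ratios within a section show the same split. The ratio of Dsp to Jup UMIs was 0.82 in the control against 0.85 in the transgenic section, a log2 change of 0.06 (0.01–0.11), with transgenic quadrants of 0.74–0.94 around the control range of 0.80–0.84. The ratio of Dsp to Pkp2 was 2.32 in the control against 5.44 in the transgenic section, and that of Dsp to Gja1 was 0.75 and 2.42. These are log2 changes of 1.23 (1.15–1.31) and 1.70 (1.64–1.76). The ratio of Dsg2 to Dsc2 went from 0.67 to 1.34, a log2 change of 1.00 (0.74–1.26). As shares of the UMIs of the 5 desmosomal genes, Dsp went from 36.2% to 41.4%, Jup from 44.3% to 48.5%, Pkp2 from 15.6% to 7.62%, Dsg2 from 1.57% to 1.42% and Dsc2 from 2.33% to 1.06%. Dsg2 therefore had a higher CPM but a similar share, with overlapping quadrants of 1.48–1.67% and 1.18–1.57%.

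Other desmosomal genes, a list of 12 genes known from epidermis and other epithelia, were mostly at or near the counts of the genes of other organs, with 9 counted, 4 lower and 5 higher. The lowest log2 ratio was −0.63 for Ppl, with 43 and 25 UMIs. Dsg1b had the highest, at 1.53 (0.43–2.75), with 10 and 26 UMIs. The list member with the most UMIs was Perp, a tetraspan membrane protein of desmosomes, with 165 and 239 UMIs and a log2 ratio of 0.68. Of scaffold and adaptor genes of the disc 23 were counted, 10 lower and 13 higher. This split and that of the other desmosomal genes lay near the share of 63.2% higher over all genes. The median log2 ratio of the scaffold list was 0.15. The lowest was Ank2 (ankyrin-B, an anchor of membrane proteins) at −1.96, from 421 to 108 CPM, and the highest was Sorbs2, an adaptor of the disc and the Z-disc, at 3.28, from 24.6 to 239 CPM. Chosen after their values were seen, Xirp1 and Flnc, which bind actin at the disc and Z-disc, were at 1.21 and 1.20, and Ldb3 and Jph2, of the Z-disc and the dyad, at −1.01 and −1.27. Tjp1 (ZO-1), the scaffold that binds connexin 43, was at 0.41. These counts were 13 lower of 23 with TMM factors.

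Transcription factors known to act on connexin genes were counted for 9 of 10 genes, with 3 lower and 6 higher and a median of 0.08. Over all genes counted 63.2% were higher, near the split of this list. Nkx2-5 was at 0.05 and Gata4 at 0.08, so neither differed by more than its counting interval. Tbx5, known to act on Gja5, was at −0.60, from 51.5 to 33.9 CPM. Tbx3, a repressor of Gja1 and Gja5 in the conduction system, was at −0.35, and Tbx2 at 0.44. Tbx18 was at 0.60 on 41 and 56 UMIs, with an interval of −0.01 to 1.22 that held 0. Tbx20 was at 0.66, Irx3 at 0.54 and Hopx at −1.60, from 975 to 321 CPM. Hand1 had no UMI in either section and is given no level. With TMM factors 5 of the 9 were lower.

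The share of spots with at least 1 UMI depended on depth. Dsp was found in 98.6% of control spots and 96.9% of transgenic spots, Jup in 99.0% and 96.6%, Gja1 in 99.0% and 95.8%, and Pkp2 in 94.2% and 89.1%. The share of spots with Gja5 was 6.93% (5.58–8.47%) in the control against 16.5% (14.1–19.0%) in the transgenic section, against at most 1.43% and 1.62% for the 15 genes of other organs. With each spot thinned to 8134 UMIs, and 1116 control and 846 transgenic spots deep enough, Gja5 was found in 5.20% and 10.4% of spots. Dsg2 was found in 20.9% of control and 30.3% of transgenic spots after thinning, and in 26.8% and 43.3% before. Cdh2 was found in 11.1% and 12.8% after thinning, and in 14.3% and 22.1% before. For Gjc1 the unthinned shares were 37.8% and 37.0% and the thinned shares 29.7% and 23.8%, for Ctnna3 68.8% and 63.9% against 59.5% and 49.2%, and for Dsc2 36.9% and 33.0% against 28.5% and 22.6%. For the 6 genes given with thinned shares the order of the sections after thinning followed the CPM, whereas Gja1, Dsp and Jup were in nearly all spots of both sections.

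The UMIs of Dsp and Jup per spot shifted as a whole. The 10th percentile, median and 90th percentile over spots were 3.03, 6.06 and 9.61 Dsp UMIs per 10000 UMIs of the spot in the control, and 6.25, 11.7 and 18.0 in the transgenic section. For Jup they were 4.13, 7.20 and 11.6 in the control, and 8.25, 13.8 and 19.4 in the transgenic section. For Gja1 they were 4.52, 8.13 and 12.3 in the control, and 2.06, 4.78 and 8.03 in the transgenic section. The transgenic median of Dsp and of Jup was above the 90th percentile of the control, and that of Gja1 was a little above the 10th percentile of the control.

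A set of spots in the transgenic section was rich in erythroid transcripts, which lowers the CPM of every other gene there. In 54 transgenic spots and 8 control spots at least 10% of UMIs came from 5 erythroid genes (hemoglobins, Alas2 and Slc4a1). In the transgenic section 41 of the 54 lay in 1 quadrant, in the opening inside the ring of tissue on the map, and they held 2.28% of the section's UMIs. Dsp stood at 386 CPM in these spots and at 1247 CPM in the other transgenic spots, Jup at 444 and 1461 CPM, and Gja1 at 240 and 513 CPM. Per 1000000 UMIs that were not of erythroid genes, Gja1 stood at 524 (409–661) in these spots and at 517 in the others, Dsp at 842 (694–1011) and 1257, and Jup at 967 (809–1148) and 1473. On that scale, chosen after the data were seen, Gja1 did not differ beyond its counting interval, and Dsp and Jup remained lower in the erythroid spots. Of the 29 transgenic spots without a Dsp UMI 27 belonged to this set. With only the spots below 10% erythroid UMIs, the section-wide log2 ratios were 0.99 for Dsp, 0.92 for Jup and 1.02 for Gja5.

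**Figure D4:**
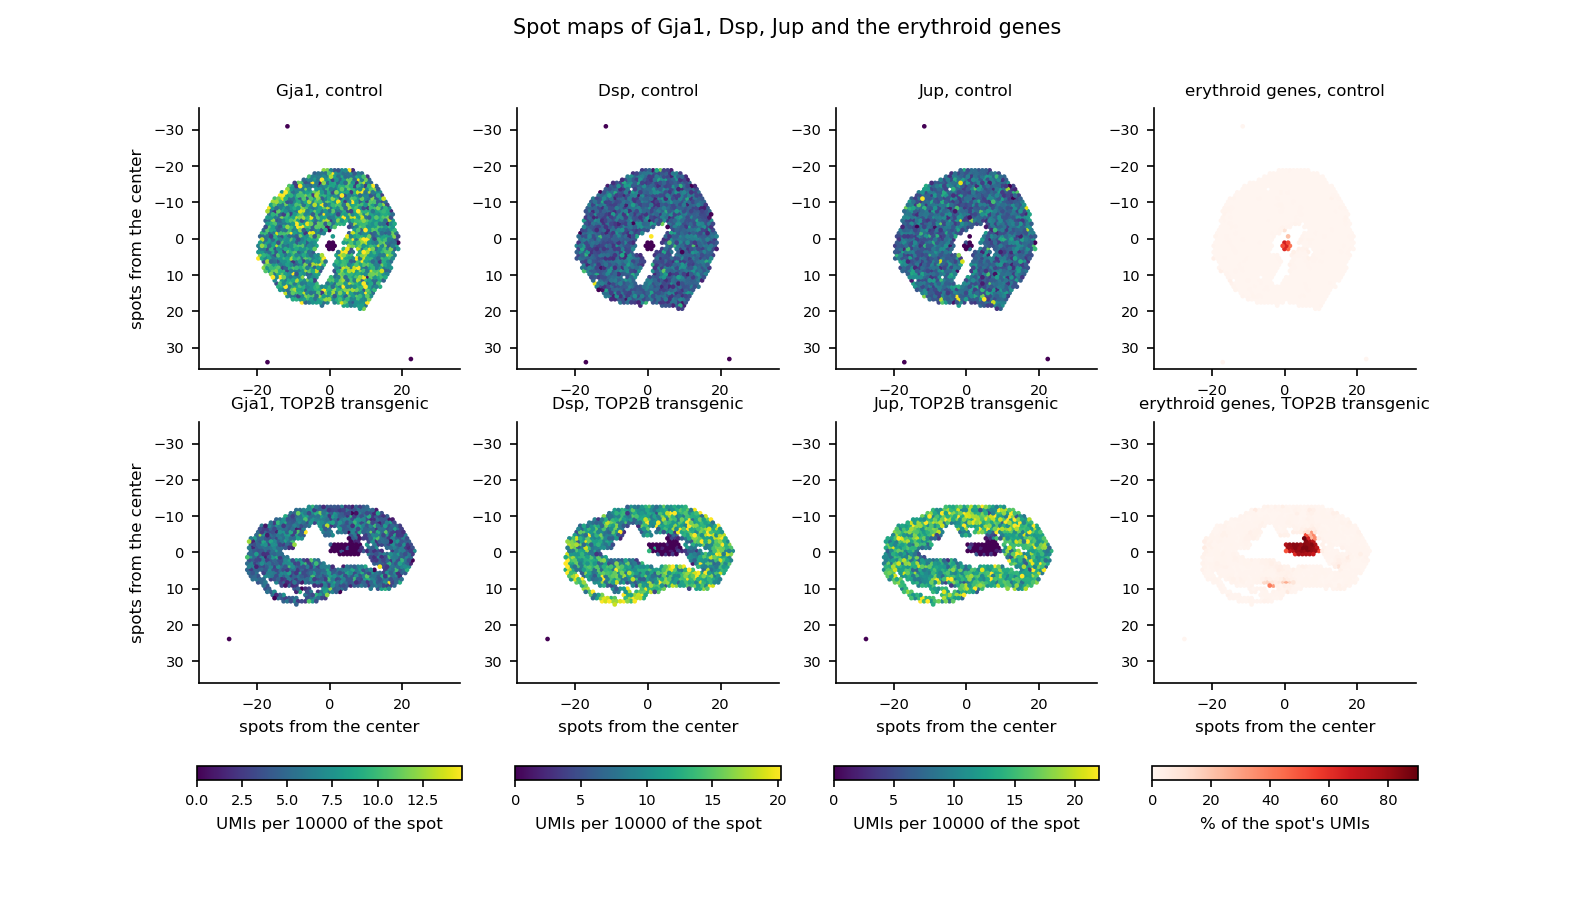
Maps of the control (top) and the TOP2B transgenic section (bottom), with each spot colored by its Gja1, Dsp or Jup UMIs per 10000 UMIs (same color scale in both sections, cut at the 98th percentile) or by the percent of its UMIs in erythroid genes. Axes give distance from the center in spots. Gja1 is darker in the transgenic section and Dsp and Jup brighter, and the dark patch of all 3 genes is the patch of erythroid spots.

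Moran's I, deposited for each gene, compares each spot with its neighbors and is near 0 for a gene without spatial order. In the control section it was 0.094 for Gja1, 0.056 for Dsp, 0.025 for Jup and between −0.005 and 0.017 for the other 7 genes, beside a median of 0.001 and a 90th percentile of 0.019 over all genes counted. In the transgenic section it was 0.588 for Jup, 0.525 for Dsp, 0.326 for Gja1 and 0.234 for Pkp2, beside a median of 0.014 and a 90th percentile of 0.097. The other 6 genes lay between −0.002 and 0.078. Computed from spot values over all spots, Moran's I was 0.633 for Jup, 0.565 for Dsp, 0.334 for Gja1 and 0.246 for Pkp2 in the transgenic section. In the control those values were 0.032, 0.089, 0.142 and −0.007. Computed likewise without the spots at or above 10% erythroid UMIs, they were 0.097, 0.226, 0.060 and 0.119 in the transgenic section. In the control they were then −0.012, 0.022, 0.051 and −0.011. The difference in Moran's I between the sections was thus smaller, and for Gja1 nearly absent, once the erythroid spots were left out. Moran's I was not computed on thinned counts, although Dsp had 7.20 UMIs per control spot against 17.2 per transgenic spot, and Jup 8.80 against 20.2. The part of these counts in the remaining differences was not tested.

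Correlations across spots were also smaller in the transgenic section without the erythroid spots, and are given as a description, since spots of 1 section share a library and vary in depth. Over 923 transgenic spots Dsp and Jup correlated at 0.70, Gja1 and Jup at 0.51 and Gja1 and Dsp at 0.44. Without the erythroid spots these values were 0.21, 0.09 and 0.03. In the control section they were 0.18, 0.22 and 0.20 over all spots and 0.11, 0.14 and 0.08 without the erythroid spots. Dsp and Pkp2 correlated at 0.23 in the transgenic section without those spots, and at 0.07 in the control. Among 3719 genes with at least 500 UMIs in each section, Tnnc1 (cardiac troponin C) had the pattern most like that of Gja1, of Dsp and of Jup, by the lower of its correlations in the 2 sections, which was 0.41, 0.34 and 0.33. Without the erythroid spots the correlation with Tnnc1 in the transgenic section was 0.06 for Gja1, −0.07 for Dsp and 0.08 for Jup. The likeness was thus not seen in the transgenic section without those spots. In the control section without them it was 0.25 for Gja1, 0.19 for Dsp and 0.23 for Jup.

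Regional differences inside the transgenic section remained without the erythroid spots, among them for Dsp, Pkp2, Ctnna3, Gja1 and Jup. Dsp ran at 1102 CPM (1064–1141) in the quadrant that held no erythroid spot and at 1302, 1277 and 1293 CPM in the other quadrants. Pkp2 was also lowest in that quadrant, at 198 CPM (182–214), and highest at 272 CPM (253–291). Jup ran from 1353 to 1567 CPM over the 4 quadrants, in another order. The edge of the tissue was defined as spots with fewer than 6 neighbors over tissue. It was compared over all spots, and 57.4% of the erythroid spots of the transgenic section lay at the edge. The log2 ratio of edge over interior was −0.13 for Gja1, −0.07 for Dsp and −0.11 for Jup in the transgenic section. The part of the erythroid spots in these edge values was not tested. With the outer 50% of spots by distance from the center in place of the edge, Dsp was higher outside at 0.19 and Jup at 0.055. Gja1 was lower outside, at −0.09 (−0.16 to −0.02). The outer and inner spots were not compared without the erythroid spots, whose part in these values was not tested. Of the 10 genes in the control section, the counting interval of edge over interior excluded 0 for Pkp2 alone, at 0.14 (0.01–0.27).

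Gja5 varied with the vascular markers by 1.18 to 2.10 on the log2 scale from the lowest to the highest bin of smooth muscle or arterial endothelial markers, whereas the other 9 disc genes lay between −0.49 and 0.39. When spots were ordered by their share of smooth muscle marker UMIs and cut into 5 equal bins, Gja5 ran from 3.67 CPM (1.76–6.75) in the lowest bin to 15.8 CPM (11.6–21.1) in the highest bin of the control, and from 8.49 CPM (5.03–13.4) to 20.2 CPM (15.2–26.3) in the transgenic section. The control bins below the highest lay between 3.67 and 5.55 CPM, so that the highest bin alone stood apart there. With arterial endothelial markers, Gja5 ran from 5.65 to 12.8 CPM in the control and from 8.17 to 25.4 CPM in the transgenic section. With fibroblast markers it ran from 4.86 to 12.4 CPM in the control and from 12.0 to 19.3 CPM in the transgenic section, where the counting interval of the log2 ratio held 0. With cardiomyocyte markers it ran the other way in the control, from 10.1 to 4.28 CPM, and from 16.3 to 12.5 CPM in the transgenic section with an interval that held 0. With the atrial list it ran from 6.10 to 8.60 CPM in the control, with an interval of the log2 ratio that held 0, and from 9.51 to 19.3 CPM in the transgenic section (1.02, 0.25–1.84). With the conduction system list it ran from 8.38 to 7.92 CPM in the control and from 9.95 to 17.6 CPM in the transgenic section (0.82, 0.07–1.61). In the 50% of spots richest in cardiomyocyte markers the Gja5 log2 ratio between the sections was 1.25.

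**Figure D5:**
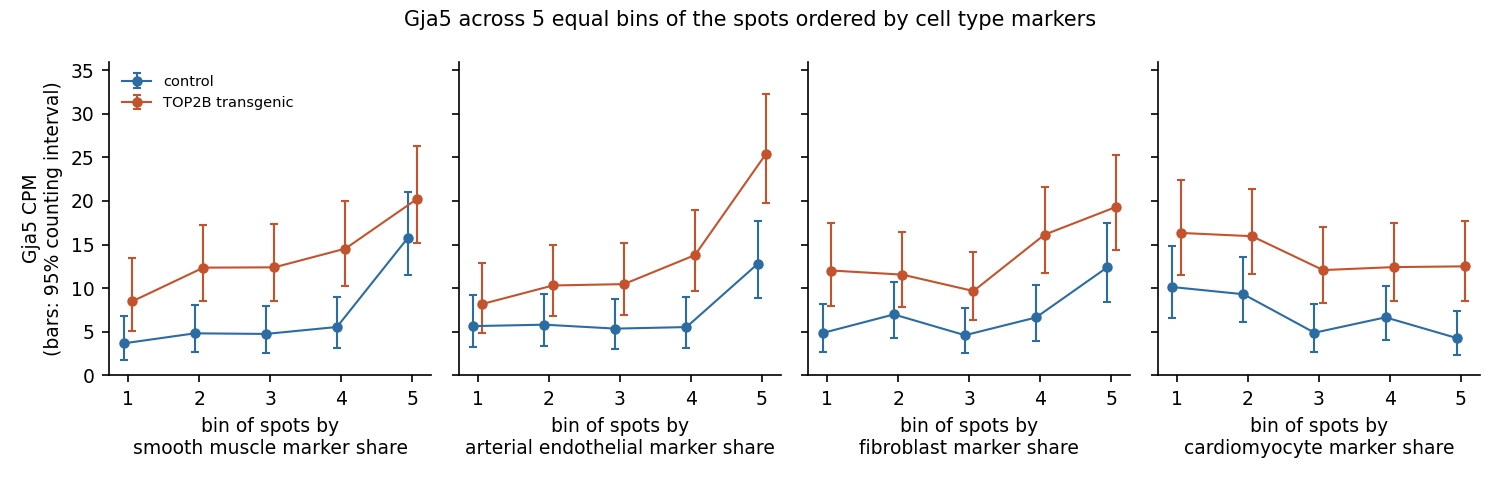
Gja5 CPM in 5 equal bins of the spots ordered by the share of smooth muscle, arterial endothelial, fibroblast or cardiomyocyte marker UMIs, in the control (blue) and the TOP2B transgenic section (red), with 95% counting intervals. Gja5 is highest in the top bin of the smooth muscle and arterial endothelial markers in both sections, at 15.8 and 20.2 CPM for smooth muscle.

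From the lowest to the highest bin of cardiomyocyte markers, Gja1 ran from 840 to 822 CPM in the control and from 472 to 507 CPM in the transgenic section, and Dsp from 599 to 625 CPM and from 1154 to 1159 CPM. Between these ends Dsp was not flat in the transgenic section, where the bin next to the lowest stood at 1396 CPM (1352–1441). Ctnna3 ran from 65.8 to 106 CPM over the transgenic cardiomyocyte bins (log2 ratio 0.69, 0.40–0.98). Dsc2 ran from 23.6 to 35.9 CPM there (0.60, 0.11–1.11). In the control the log2 ratios of Ctnna3 and Dsc2 were −0.02 and 0.23, with intervals that held 0. Jup went the other way in the transgenic section, at −0.07 (−0.14 to −0.004). Over the smooth muscle bins Dsp ran from 1108 to 1332 CPM in the transgenic section (log2 ratio 0.27, 0.19–0.34), and from 595 to 626 CPM in the control. From the lowest to the highest bin of fibroblast markers, Dsp ran from 1076 to 1269 CPM in the transgenic section, with a log2 ratio of 0.24 (0.16–0.31), Jup from 1293 to 1427 CPM (0.14, 0.07–0.21) and Pkp2 from 182 to 223 CPM (0.30, 0.11–0.48). In the control section Dsp ran from 622 to 620 CPM and Pkp2 from 272 to 275 CPM over the fibroblast bins. Control Jup fell there from 775 to 714 CPM (−0.12, −0.21 to −0.03). Ctnna3 fell over the transgenic fibroblast bins from 98.4 to 79.8 CPM (−0.30, −0.58 to −0.03). In the control it stood at −0.22, with an interval that held 0. In every bin of these 2 marker lists Dsp was higher in the transgenic section than in any control bin, and Gja1 was lower. The fibroblast markers summed to 2085 CPM in the control (1876–2271 over quadrants) and 6371 CPM in the transgenic section (4696–8026). All 10 fibroblast genes were higher or equal, and with TMM factors 2 of the 10 were lower. The part of the fibroblast genes in these differences was not tested. The bins of every marker list include the erythroid spots and were not made again without them. Without those spots the correlation with the fibroblast markers in the transgenic section fell from 0.55 to 0.15 for Dsp. For Jup it fell from 0.60 to 0.14, and for Pkp2 from 0.33 to 0.11. Spots were also ordered by depth. From the lowest to the highest depth bin the transgenic log2 ratio was 0.41 (0.33–0.49) for Jup and 0.35 (0.27–0.44) for Dsp. It was 0.33 (0.13–0.53) for Pkp2, 0.80 (0.27–1.35) for Dsg2 and 0.17 (0.04–0.30) for Gja1. For the other disc genes the interval held 0. In the control it excluded 0 for Dsp alone, at 0.12 (0.02–0.23). The part of depth in the marker bins was not tested.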

How the data were processed

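The deposited values are raw UMI counts per gene and spot, which the authors made with Space Ranger 2.0.0 (per the file headers) from Visium CytAssist probe libraries, with GRCm39 and mm39 named in the submitters' processing notes. Moran's I, a spatial score per gene and section, was used as deposited. For CPM, the UMIs of a gene over all spots were taken per 1000000 UMIs of that section. Log2 ratios carry exact conditional binomial intervals, shares Clopper-Pearson intervals and CPM exact Poisson intervals, all at 95% and for counting error only. With 1 section per genotype no p value was computed, and no test over spots, such as the Wilcoxon test of the study, was run, because spots are not replicates. Genes with at least 20 UMIs over both sections were counted. The 2 sections share 725 of their spot barcodes, which are fixed positions of the slide design, and 4 control and 2 transgenic spots without any neighbor over tissue hold 0.00924% and 7.72e-06% of the UMIs. Spots were placed in quadrants, in edge (under 6 neighbors) or interior, and in 5 equal bins of the summed share of each marker list or of depth. The edge and bin comparisons kept the erythroid spots. The marker lists hold 6 to 12 genes each, and Actc1 was not analysed here. In the text the genes named are the 10 disc genes, the highest and lowest of each list, and any member of a list of under 15 genes, apart from those named as chosen later, Tjp1, and the genes that check the labels; the highest gene of the connexin and pannexin list is not reported here. The disc genes, lists and motifs were chosen with earlier results of these data known. Interval and Moran functions were tested on simulated data. Promoters came from the RefSeq table of GRCm38.p6. The alternatives used edgeR 4.0.16 TMM factors and DESeq2 1.42.0 size factors (R 4.3.3), other totals, subsets of spots, and 1 CPM added. Everything else ran in Python 3.11.15 with numpy 2.4.6, scipy 1.17.1 and pandas 2.3.3.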

Additional observations from a re-analysis of the deposited data

How the results depend on the processing

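Over 12 alternative settings, 2 of them (spots under 10% erythroid UMIs, and totals without erythroid genes) chosen after the data were seen, none of the 10 disc genes changed direction, and 5 were lower in each setting. The log2 ratio ran from −0.89 to −0.70 for Gja1, from 0.83 to 1.25 for Gja5, from 0.81 to 1.01 for Dsp, from 0.75 to 0.96 for Jup, from −0.42 to −0.21 for Pkp2 and from −0.53 to −0.18 for Dsc2. The median of the disc genes was −0.08 under TMM and −0.07 under DESeq2 scaling, which shift all ratios down by 0.16 and 0.15. The count of disc genes at least 2-fold higher was 1 in the 50% of spots richest in cardiomyocyte markers, in spots away from the edge, in spots with under 10% erythroid UMIs and with totals without erythroid genes (Gja5 each time), and 2 in the 50% of spots poorest in erythroid genes (Gja5 and Dsp). The Gja5 share of connexin UMIs in the control section was 0.59% in the spots richest in cardiomyocyte markers. The outer over inner comparison reversed the edge direction in the transgenic section, at 0.19 for Dsp and 0.055 for Jup. The cause of these changes was not tested. Counts per list moved with TMM factors as given beside the adherens junction, scaffold and transcription factor lists. With TMM factors 5 of the 12 other connexins and pannexins were lower in place of 3, and 5 of the 9 other desmosomal genes in place of 4. For the endothelial list 6 of 10 genes were lower in place of 3, and for the fibroblast list 2 of 10 in place of 0. No paired analysis was possible because each genotype has 1 section and the shared number 1 pairs nothing. The depth limits Gja5, Cdh2 and Dsg2, which have the fewest UMIs of the 10 genes in the control section. It also limits Dsc2 and Gjc1, which had 406 and 452 UMIs in the transgenic section, fewer than the 545 of Dsg2 there.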
